A study of Mus musculus with 5 samples.

Results

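The Siglec family receptors described here are the products of 7 mouse genes, *Siglec1*, *Siglece*, *Siglecf*, *Siglecg*, *Siglech*, *Cd22*, and *Cd33*. They were chosen by name, as listed members of the family, and make up 7 of the 17018 genes with a count in any of the libraries. RNA-Seq libraries came from bone marrow–derived macrophages (BMDMs) of Balb/c mice that shared a dish for 48 hours with 4T1 cells, a mouse mammary carcinoma line of the same strain. In 2 libraries the macrophages were cocultured with WT 4T1 cells, and in 3 libraries with *Adam17*-/- 4T1 cells. ADAM17 is a sheddase that releases EGFR ligands from the cell surface, and the comparison asks how its loss from cancer cells changes the transcripts of neighboring macrophages. All macrophages were differentiated with M-CSF and grown apart from the cancer cells behind a porous membrane, and *Adam17* was deleted in the 4T1 cells only, so the sequenced macrophages kept it. The 3 knock-out libraries bear 1 line designation (2.8), so the loss of ADAM17 and any other property of that CRISPR-edited line cannot be told apart.

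Siglecs are lectins of the immunoglobulin superfamily that bind sialic acid, the sugar that caps many glycans on the cell surface. Most members carry an inhibitory motif (ITIM) in the cytoplasmic tail, which is phosphorylated by Src family kinases and recruits the phosphatases SHP-1 and SHP-2. Others pair with the activating adaptor DAP12 or, as sialoadhesin does, work mainly in adhesion. Macrophages use them to sense self-glycans, and sialic acid-rich tumor cells can engage the inhibitory members.

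The files list expected counts and FPKM values by transcript, and both were summed per gene. Library totals ran from 14658694 to 20788373 counts, so that 3 counts, taken as the floor, equal 0.157 to 0.197 CPM (counts scaled by the TMM-normalized library total). The WT libraries differed from each other more than the *Adam17*-/- libraries did, with a chi-square per degree of freedom of 25.7 against 5.22 to 6.32. Differences were tested with edgeR's quasi-likelihood test over 12576 genes with Benjamini-Hochberg adjustment, and log2 fold changes are given as *Adam17*-/- minus WT coculture. Over all genes tested, the log2 fold change had a median of 0.01. This median was 0.16 where only the library size was used for scaling, and any difference on that scale contains this shift. The macrophages' own *Adam17* transcript, which the deletion did not touch and which therefore does not check the labels, was 197.5 and 199.6 CPM in the WT group and 151.6, 163.8, and 160.6 CPM in the *Adam17*-/- group (log2 fold change −0.32, edgeR adjusted p = 0.0129).

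In the GRCm38 annotation, 4 members lie in 1 stretch of chromosome 7. From the start of *Siglecf* to the end of *Siglece* it spans 320704 bp, with gaps of 48716 bp between *Siglecf* and *Siglecg*, 109049 bp between *Siglecg* and *Cd33*, and 111457 bp between *Cd33* and *Siglece*. *Cd22* and *Siglech* lie elsewhere on chromosome 7 and *Siglec1* on chromosome 2. RefSeq promoter sequences (250 bases before to 50 bases after the annotated start, GRCm38.p6) matched 6 of the 7 members, all but *Siglec1*, and the windows of *Siglecf* and *Cd33* are shown because they share the longest run of letters of any pair. The run AAAGTGGAAGTGTTTA, 16 bases, lies 27 to 12 bases before the start of *Siglecf* and 157 to 142 bases before that of *Cd33*. The *Cd33* start in the promoter table, position 43533171, is that of transcript NM_021293 and lies inside the annotated gene span, which reaches 43537424. The run is in capitals in each window, chr7:43351291-43351370 on the + strand for *Siglecf* and chr7:43533272-43533351 on the − strand for *Cd33*.
Siglecf: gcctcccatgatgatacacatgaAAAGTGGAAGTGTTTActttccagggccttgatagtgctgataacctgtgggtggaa
Cd33: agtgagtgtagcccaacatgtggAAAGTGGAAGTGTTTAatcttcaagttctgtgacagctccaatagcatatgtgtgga

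The best local alignment of these promoters had 62 identical letters in 80 columns (77.5%). Among 27025 genes with a promoter sequence, the run was found on either strand in 2 (0.0074%), *Siglecf* and *Cd33*, whereas the other 14 pairs of members shared runs of 7 to 10 bases. The run was picked after the sequences had been compared and is a description of the letters. The core of the interferon-stimulated response element, GAAA and GAAA with any 2 bases between them, was in none of these 6 members' windows on either strand and in 3.99% of all genes' windows. The core letters bound by PU.1, GAGGAAGT, were likewise in none of the 6 windows and in 3.69% of all.

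The *Cd33* transcripts in the files, NM_001111058 with 7 exons and NM_021293 with 6 exons, differ by 83 bases in the files' lengths, which is the length of coding exon 6 of NM_001111058 at chr7:43529473-43529555 on the − strand. The exon is printed in capitals with 15 bases of the neighboring exon on each side, as joined in the spliced transcript. It is shown since it is 1 of the stretches in which these isoforms differ. In the GENCODE annotation they also differ in the first exon (44 and 114 bases) and in the end of the last exon (1014 and 4793 bases). These ends are not all those of the files, where NM_021293 is 2488 bases long, shorter than its GENCODE last exon. Which bases the isoform values given further on rest on was not tested.
Cd33 exon 6: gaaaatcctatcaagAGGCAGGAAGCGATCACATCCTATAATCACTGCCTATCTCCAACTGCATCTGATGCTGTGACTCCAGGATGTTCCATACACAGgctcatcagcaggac

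In cocultured macrophages, *Siglec1* was lower and *Siglecf* was higher when the 4T1 cells lacked ADAM17, each by more than 1 on the log2 scale. *Cd33* and *Siglece* were higher by smaller steps, *Cd22* did not pass the test, and *Siglecg* and *Siglech* had too few counts to be tested. Of the 7 members, 5 passed the filter on low counts, of which 3 were higher and 1 was lower at an adjusted p of at most 0.05. Among all genes tested, 14.9% were higher and 16.8% were lower by the same rule, or 1869 and 2114 genes, which became 3019 and 1077 with library size only. With a log2 fold change of at least 1 as well, 1 member was higher and 1 was lower, beside 3.36% and 0.867% of all genes tested. The groups did not overlap in CPM for 4 of the 5 members, as for 58.1% of all genes tested. The median log2 fold change of the 5 members was 0.28. The count of members called higher was 1 when any 1 of the *Adam17*-/- libraries was left out. In bulk RNA, fewer cells expressing a gene and less RNA of that gene per cell cannot be told apart.

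**Figure D1:**
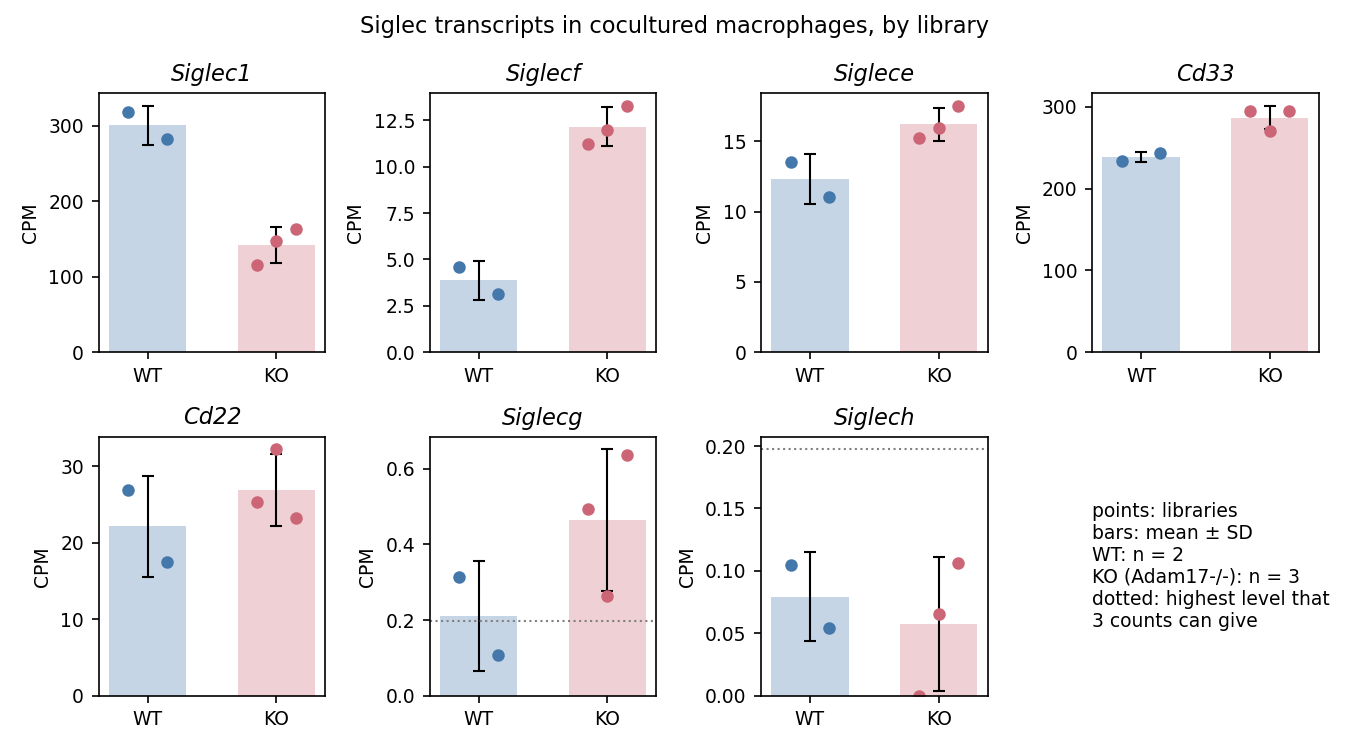
Level of each Siglec transcript in CPM by group, with 1 point per library, bars for the mean, and error bars for the SD (WT coculture, n = 2, and *Adam17*-/- coculture, KO, n = 3). All axes start at 0 and differ in scale. *Siglec1* points of the KO group, 116 to 163 CPM, lie under both WT points, and *Siglecf* points of the KO group, 11.2 to 13.3 CPM, lie over both, whereas those of *Cd22* overlap and those of *Siglech* stay under the dotted line for 3 counts.

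*Siglec1* (gene 20612, chr2:131067801-131086778, − strand, 21 exons) encodes sialoadhesin (CD169), an adhesion receptor of resident and lymphoid macrophages that lacks an ITIM and is known as an interferon-inducible gene. Beside WT cells it stood at 319 and 282 CPM, and beside *Adam17*-/- cells at 116, 147, and 163 CPM, from 2117 to 6092 counts. The lowest WT library stood above the highest *Adam17*-/- library, and the means were 300.4 ± 26.0 CPM (SD, n = 2) and 142 ± 24.1 CPM (SD, n = 3). The transcript was thus 2.12-fold lower beside *Adam17*-/- cells, with a log2 fold change of −1.08 (SE 0.131, 95% confidence interval −1.37 to −0.79, edgeR adjusted p = 0.00069). With library size only, where the median of all genes was 0.16, its log2 fold change was −0.93. Without WT replicate 1 it was −0.99 and without *Adam17*-/- replicate 1 it was −0.93, so that no member was lower past a log2 fold change of 1 in those fits.

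The inhibitory receptor Siglec-F, encoded by *Siglecf* (gene 233186, chr7:43351341-43359475, + strand), is best known from mouse eosinophils and alveolar macrophages. Beside WT cells 88 and 58 counts were found, against 205, 182, and 251 counts beside *Adam17*-/- cells, or 4.61 and 3.14 CPM and 11.2, 12.0, and 13.3 CPM. Every *Adam17*-/- library was above both WT libraries, with means of 12.2 ± 1.05 CPM (SD, n = 3) and 3.87 ± 1.04 CPM (SD, n = 2). The level was 3.13-fold higher, a log2 fold change of 1.65 (SE 0.183, 95% confidence interval 1.24 to 2.06, edgeR adjusted p = 0.00055). The direction and the call held in each of the 14 alternative fits, where the log2 fold change lay between 1.32 and 1.95. Over all 5 libraries, 30.2% of the genes tested had a lower mean FPKM than *Siglecf*.

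Siglec-E, the product of *Siglece* (gene 83382, chr7:43648882-43672044, − strand, 7 exons), is an ITIM-bearing receptor that restrains neutrophils and macrophages. Its values were 13.6 and 11.0 CPM beside WT cells and 15.2, 15.9, and 17.5 CPM beside *Adam17*-/- cells. The groups did not overlap, but the gap between the higher WT library and the lowest *Adam17*-/- library was smaller than the SD of the WT group, 1.78 CPM. The log2 fold change was 0.40 (SE 0.131, 95% confidence interval 0.11 to 0.69, edgeR adjusted p = 0.043). This call was lost with DESeq2 (adjusted p = 0.0872) and when WT replicate 2 or any of the 3 *Adam17*-/- libraries was left out (edgeR adjusted p 0.0679 to 0.131). The annotated span of *Siglece* overlaps that of *Ctu1* by 74 bp, and *Ctu1* was lower, with a log2 fold change of −0.60 (edgeR adjusted p = 0.0248). The span of *Siglece* also overlaps that of *Ceacam18* by 414 bp, and *Ceacam18* was at 0 beside WT cells and had 6, 3, and 3 counts beside *Adam17*-/- cells. How reads in these overlaps were assigned is not given in the sources used here.

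CD33 is a myeloid Siglec whose mouse form lacks the ITIM of its human counterpart, and *Cd33* (gene 12489, chr7:43527399-43537424, − strand) had 4112 to 5575 counts per library. Levels were 234 and 243 CPM in the WT group and 295, 271, and 295 CPM in the *Adam17*-/- group. All 3 *Adam17*-/- libraries exceeded both WT libraries, with means of 287 ± 14.3 CPM (SD, n = 3) and 239 ± 6.52 CPM (SD, n = 2). The difference was small, 1.20-fold or 0.27 on the log2 scale (SE 0.0816, 95% confidence interval 0.08 to 0.45, edgeR adjusted p = 0.0337). It was no longer called without *Adam17*-/- replicate 1 (edgeR adjusted p = 0.121), replicate 2 (0.0511), or replicate 3 (0.0996).

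The *Cd33* isoform with the exon shown above, NM_001111058, carried 13.3% and 6.03% of the gene's expected counts beside WT cells and 11.8%, 8.34%, and 9.62% beside *Adam17*-/- cells. The WT libraries thus bracketed the others, and the mean shares of 9.66% and 9.93% differed by 0.266 percentage points (exact two-sided permutation test, p = 1.0, where the smallest p possible is 0.1). A minor *Siglecf* transcript, NM_001271019, was listed at 0 in both WT libraries and in *Adam17*-/- replicate 2, and at 6.12% and 7.37% of the gene's counts in replicates 1 and 3 (exact permutation p = 0.4). For *Cd22*, the transcript NM_001043317 ranged from 0 to 18.7% without a separation of the groups (exact permutation p = 0.9). The split of reads between isoforms is an estimate by the authors' software, and shares of 0 may be failed estimates.

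*Cd22* (gene 12483, chr7:30865404-30880342, − strand) encodes the inhibitory coreceptor of the B cell receptor, and its transcript was present at 26.8 and 17.4 CPM beside WT cells and at 25.4, 32.2, and 23.2 CPM beside *Adam17*-/- cells. The groups overlapped, since WT replicate 1 exceeded 2 of the *Adam17*-/- libraries. The log2 fold change of 0.28 did not pass the test (SE 0.189, 95% confidence interval −0.14 to 0.70, edgeR adjusted p = 0.283). It turned on the WT libraries, at −0.0035 (edgeR adjusted p = 0.987) without WT replicate 2 and 0.62 (edgeR adjusted p = 0.0125) without WT replicate 1. Markers of B cells were low. Their summed level over 6 genes was 4.66 and 1.89 CPM beside WT cells and 3.50, 6.05, and 4.98 CPM beside *Adam17*-/- cells, lowest in the library with the lowest *Cd22* and highest in that with the highest, while the other 3 libraries came in another order. Of the 3 markers tested, 1 was higher, beside 14.9% of all genes tested. This was the transcription factor *Ebf1*, with 7 and 1 counts beside WT cells and 14, 20, and 14 counts beside *Adam17*-/- cells (log2 fold change 2.09, edgeR adjusted p = 0.0308). *Cd79b*, a chain of the B cell receptor, had 28 to 54 counts per library and *Pax5* had 0 to 2, and the part of B cells in the *Cd22* values was not tested.

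The remaining members were at or near the limit of detection. *Siglecg* (gene 243958, chr7:43408192-43418349, + strand, 12 exons), an inhibitory receptor of B cells that binds CD24, had 6 and 2 counts beside WT cells and 9, 4, and 12 counts beside *Adam17*-/- cells. These ranges overlap, and the gene was not tested in the filtered table. *Siglech* (gene 233274, chr7:55768154-55779448, + strand), a DAP12-coupled marker of plasmacytoid dendritic cells, had 2 and 1 counts beside WT cells and 0, 1, and 2 counts beside *Adam17*-/- cells. All of its values lie under the floor of 3 counts, so a difference was not detectable at this depth and no fold is given.

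**Figure D2:**
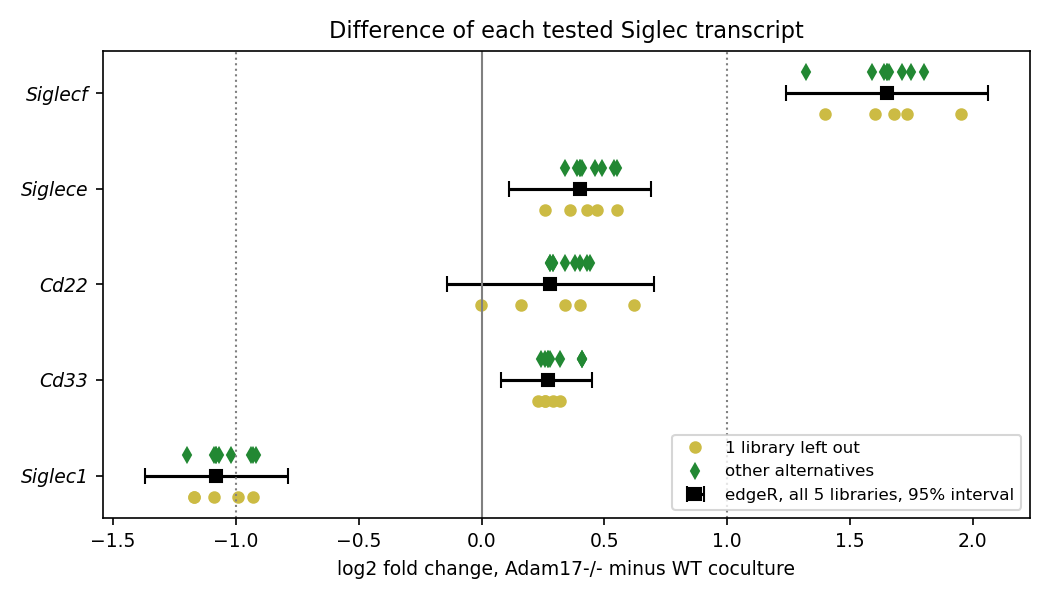
Log2 fold change (*Adam17*-/- minus WT coculture) of the 5 Siglec transcripts tested, with black squares and lines for the edgeR value and its 95% confidence interval, circles for fits with 1 library left out, and diamonds for other normalizations, tools, and filters. *Siglecf* stays at 1.32 or above and *Siglec1* at −0.92 or below in every fit, whereas *Cd22* reaches −0.0035.

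Compared per length, *Cd33* and *Siglec1* were the main Siglec transcripts of these macrophages. *Cd33* had 88.4 and 96.5 FPKM in the WT libraries and 116 to 127 FPKM in the *Adam17*-/- libraries, and 95.5% of the genes tested had a lower mean. *Siglec1* followed with 46.0 and 42.6 FPKM and then 19.1, 23.9, and 26.6 FPKM. In the WT libraries *Siglece* (5.96 to 6.99 FPKM) and *Cd22* (4.28 to 6.29 FPKM) came next and overlapped, and *Siglecf* (1.23 to 1.72 FPKM) was below both. In the *Adam17*-/- libraries the order of the members was the same and *Siglece* (8.95 to 10.2 FPKM), *Cd22* (6.16 to 8.48 FPKM), and *Siglecf* (4.79 to 5.61 FPKM) did not overlap.

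The make-up of the family's transcript pool therefore differed between groups. *Siglec1* made up 30.8% and 28.3% of the summed FPKM of the 7 genes beside WT cells and 11.4%, 14.7%, and 15.2% beside *Adam17*-/- cells. The share of *Cd33* was 59.1% and 64.1% in the first group and 76.2%, 71.2%, and 72.0% in the second. *Siglecf* went from 1.15% and 0.817% to 2.86%, 3.10%, and 3.21%. None of these 3 shares overlapped between the groups, while the direction of the sum over the family depended on the scale. Summed FPKM was 149.6 and 151 in the WT libraries and 162 to 175 in the *Adam17*-/- libraries, on a scale where the log2 fold change of all genes had a median of 0.15 (FPKM + 0.1). Summed CPM went the other way, from 557 to 598 in the WT libraries and from 464 to 513 in the *Adam17*-/- libraries.

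**Figure D3:**
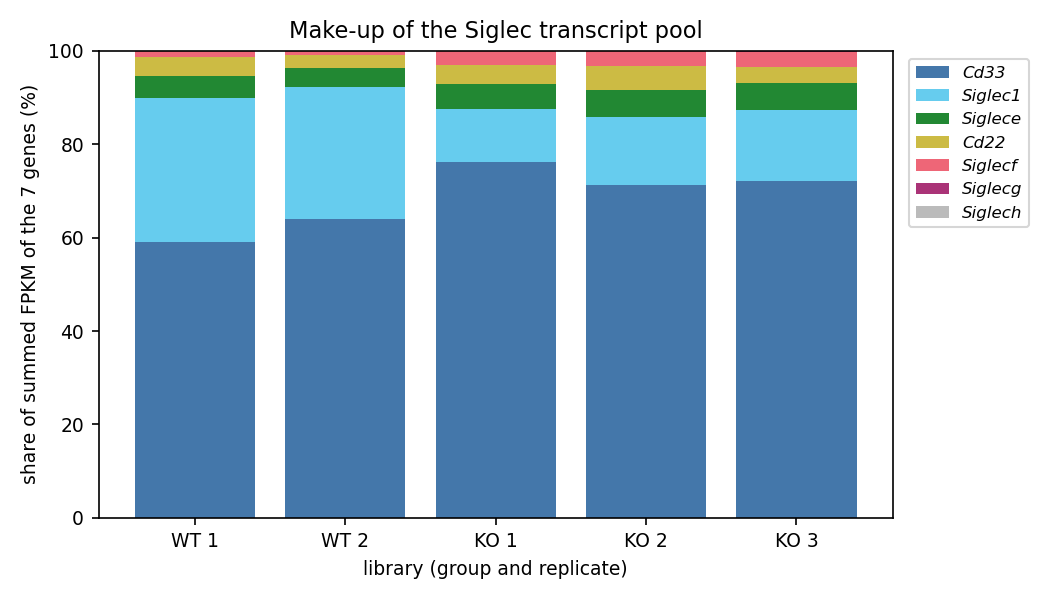
Share of each gene in the summed FPKM of the 7 Siglec genes (percent, y axis from 0) in each library (x axis, WT and *Adam17*-/- [KO] replicates). The band of *Siglec1* takes 28.3% and 30.8% in the WT libraries and 11.4% to 15.2% in the KO libraries, and the bands of *Siglecg* and *Siglech* are too thin to be seen.

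Ratios of members within a library do not depend on how libraries are scaled to each other. The FPKM of *Cd33* was 1.92 and 2.26 times that of *Siglec1* beside WT cells, and 6.68, 4.84, and 4.73 times beside *Adam17*-/- cells. *Siglec1* had 26.8 and 34.6 times the FPKM of *Siglecf* beside WT cells, but 3.98, 4.74, and 4.74 times beside *Adam17*-/- cells. Neither ratio overlapped between the groups. The ratio of *Siglece* to *Cd33* did overlap, at 0.0790 and 0.0618 beside WT cells and 0.0703, 0.0802, and 0.0810 beside *Adam17*-/- cells.

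Markers of macrophages and of neutrophils and their precursors differed between the groups too. The macrophage markers, among them *Adgre1*, *Csf1r*, *Cd68*, *Mertk*, *Fcgr1*, *Itgam*, and *Lyz2*, were all abundant, with *Lyz2* at 12681 CPM in the WT group and 8063 CPM in the *Adam17*-/- group. Their summed level was 27740 to 28400 CPM in the WT libraries and 18055 to 19954 CPM in the *Adam17*-/- libraries. Of the 8 genes, 6 passed the test and were lower, beside 16.8% of all genes tested. The list's median was −0.59 on the log2 scale, and *Cd68* was the furthest from 0 (−0.93, edgeR adjusted p = 0.00116). *Csf1r* (−0.29, edgeR adjusted p = 0.052) and *Mertk* (−0.06, edgeR adjusted p = 0.572) did not pass. *Siglec1* was below this median at −1.08, and the part of macrophage content in its value was not tested.

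Neutrophil and granulocyte precursor markers were higher beside *Adam17*-/- cells, in the direction of *Siglecf*. Their summed level was 126 and 95.4 CPM beside WT cells and 347, 475, and 326 CPM beside *Adam17*-/- cells. Of 8 genes, 7 were higher, beside 14.9% of all genes tested. Their median was 1.73 on the log2 scale, with, for example, *Ltf* (lactoferrin, 2.18, edgeR adjusted p = 0.000145) and *Ly6g* (1.83, edgeR adjusted p = 0.000641). Eosinophil markers summed to 2.20 and 1.79 CPM in the WT libraries and to 2.63, 7.17, and 3.12 CPM in the *Adam17*-/- libraries. Among them *Epx*, the eosinophil peroxidase, had 10 and 4 counts and then 11, 32, and 9 counts, and did not pass the test (log2 fold change 1.43, edgeR adjusted p = 0.161). *Prg2*, the major basic protein, had 19 and 18 counts and then 21, 52, and 34 counts, without overlap, and did not pass either (1.08, edgeR adjusted p = 0.0953). The receptor gene *Il5ra* had 2 and 2 counts, under the floor, and then 9, 6, and 9 counts, and was not tested. *Ccr3* went the other way in *Adam17*-/- replicates 1 and 3. It had 11 and 7 counts and then 5, 16, and 4 counts, with overlap, and was not tested either. *Prg3* had at most 3 counts. *Adam17*-/- replicate 2 was the highest library on both lists, while its *Siglecf* level of 12.0 CPM lay between those of the other *Adam17*-/- libraries. Of the alveolar macrophage markers, *Fabp1* and *Krt79* were at 0 in every library and *Car4* had at most 3 counts. *Marco* had 28 counts in WT replicate 1 and at most 1 elsewhere. *Pparg* had 31 and 8 counts beside WT cells and 44, 33, and 46 counts beside *Adam17*-/- cells, without overlap and in the direction of *Siglecf*, but did not pass the test (log2 fold change 1.17, edgeR adjusted p = 0.0565). The part of granulocytes or of alveolar macrophage-like cells in the *Siglecf* values was not tested.

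**Figure D4:**
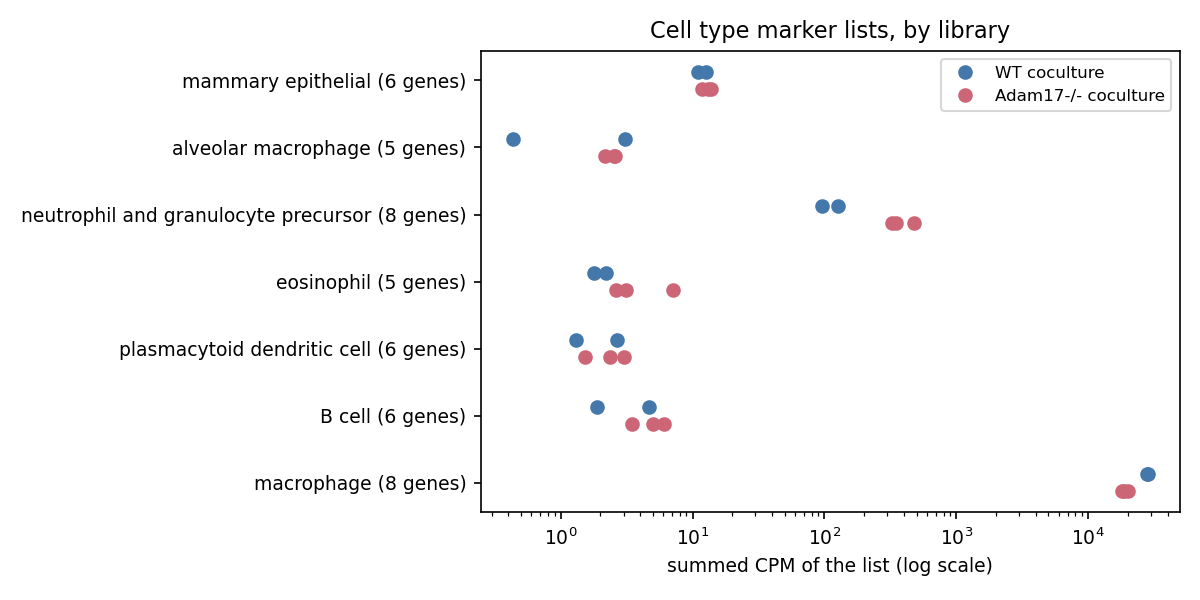
Summed CPM (log axis) of each cell type marker list, with 1 point per library for WT (blue) and *Adam17*-/- (red) coculture. Macrophage markers sum to 18055 CPM or more in every library, neutrophil and granulocyte precursor markers lie at 95.4 to 126 CPM and 326 to 475 CPM, and lists of B cells, eosinophils, plasmacytoid dendritic cells, and alveolar macrophages stay under 10 CPM.

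Plasmacytoid dendritic cell markers, the lineage of *Siglech*, summed to 1.30 to 2.67 CPM in the WT libraries and 1.53 to 3.03 CPM in the *Adam17*-/- libraries. The mammary epithelial markers that 4T1 cells would bring summed to 11.0 to 12.6 CPM and 11.8 to 13.8 CPM. Nearly all of that sum was *Cdh1*, and *Epcam* had 1 count in 1 library and was at 0 in the other 4.

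Genes that carry Siglec signals into the cell were tested from a list of 14. Of these, 5 were lower and 1 was higher, beside 16.8% and 14.9% of all genes tested, and the median log2 fold change was −0.11. The count of lower genes was 3 when any 1 of the *Adam17*-/- libraries was left out and with library size only. The adaptor *Tyrobp*, which encodes DAP12, was 488 and 471 CPM beside WT cells and lower beside *Adam17*-/- cells, with a log2 fold change of −0.46 (edgeR adjusted p = 0.00332). *Inpp5d*, which encodes the inositol phosphatase SHIP-1, fell by 0.41 on the log2 scale (edgeR adjusted p = 0.00594). The kinase *Src* was higher (0.41, edgeR adjusted p = 0.00536), a call lost with the replicate number as a block. *Ptpn6*, encoding SHP-1, and *Lyn*, encoding the kinase that phosphorylates ITIMs in many leukocytes, were lower by smaller amounts (−0.29 and −0.26, edgeR adjusted p = 0.0249 and 0.0274). *Syk*, the kinase downstream of DAP12, did not pass the test (0.10, edgeR adjusted p = 0.405).

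Sialic acid itself is made and activated in the same cell that displays it. Of 10 genes of its supply, 3 were higher and 1 was lower, beside 14.9% and 16.8% of all genes tested, and the list's median was 0.22 on the log2 scale. The count of higher genes was 1 without WT replicate 1 or *Adam17*-/- replicate 1 or 3, 5 without WT replicate 2, and 6 with library size only. The lower gene was no longer called without *Adam17*-/- replicate 1. *Cmah*, whose enzyme hydroxylates CMP-Neu5Ac to CMP-Neu5Gc and so changes the form of sialic acid that Siglecs meet, had 272 and 435 counts beside WT cells and 631, 470, and 650 counts beside *Adam17*-/- cells, without overlap (log2 fold change 0.82, edgeR adjusted p = 0.00858). The Golgi transporter *Slc35a1* (0.53, edgeR adjusted p = 0.0195) and the O-acetyltransferase *Casd1* (0.34, edgeR adjusted p = 0.034) were higher, and the synthase *Nans* was lower (−0.49, edgeR adjusted p = 0.00736). The lysosomal exporter *Slc17a5* had a log2 fold change of 0.19 (edgeR adjusted p = 0.13).

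Sialyltransferases attach sialic acid to glycans, and 11 of the 20 genes were tested, of which 5 were lower and 1 was higher, beside 16.8% and 14.9% of all genes tested. The count of lower genes was 2 without *Adam17*-/- replicate 1 or 2 and with library size only. *St3gal5*, the synthase of the ganglioside GM3, was 179 CPM in the WT group and 91.8 CPM in the *Adam17*-/- group (log2 fold change −0.96, edgeR adjusted p = 0.0015). *St6gal1*, which makes the linkage that CD22 binds, fell by 0.64 on the log2 scale (edgeR adjusted p = 0.000966), and *St3gal3* fell by 0.43 (edgeR adjusted p = 0.0141). The 1 gene called higher, *St8sia1*, had 2 and 3 counts beside WT cells, at or under the floor, and 30, 18, and 12 counts beside *Adam17*-/- cells. Among those that did not pass were the polysialyltransferase *St8sia4* (0.33, edgeR adjusted p = 0.265) and *St3gal1*, which acts on O-glycans (−0.22, edgeR adjusted p = 0.0643). Of 4 sialidases, which remove sialic acid, 2 were tested. The lysosomal *Neu1* was lower (−0.31, edgeR adjusted p = 0.0313), a call lost in 9 of 14 alternatives, among them the fits without WT replicate 1, without each *Adam17*-/- library, and with library size only. *Neu3* had a log2 fold change of 0.19 (edgeR adjusted p = 0.312).

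Among 5 carriers of Siglec ligands, 2 were higher and 1 was lower, beside 14.9% and 16.8% of all genes tested. *Cd24a*, a ligand of Siglec-G, had 397 and 257 counts beside WT cells and 744, 674, and 744 counts beside *Adam17*-/- cells (log2 fold change 1.26, edgeR adjusted p = 0.000754). *Spn*, which encodes the sialoadhesin ligand CD43, was higher as well (0.96, edgeR adjusted p = 0.00278), and the secreted glycoprotein *Lgals3bp* was lower (−0.73, edgeR adjusted p = 0.00535). *Cd24a* and *Spn* are also expressed by immature granulocytes, whose markers were higher in the same libraries, and the part of those cells in these values was not tested.

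*Siglec1* is known as an interferon-inducible gene, and 15 other interferon-stimulated genes were read beside it. Their median log2 fold change was 0.10, and 4 passed the test and were higher, beside 14.9% of all genes tested, *Mx2* (0.63, edgeR adjusted p = 0.0178), *Mx1* (0.60, edgeR adjusted p = 0.018), *Ifit2* (0.56, edgeR adjusted p = 0.0351), and *Usp18* (0.55, edgeR adjusted p = 0.0243). These 4 were opposite in sign to *Siglec1*, and the part of interferon signaling in the *Siglec1* value was not tested. *Oasl2* (0.18, edgeR adjusted p = 0.0998) and *Irf7* (−0.26, edgeR adjusted p = 0.094) did not pass. When any 1 of the *Adam17*-/- libraries was left out, the count of higher genes was 1.

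**Figure D5:**
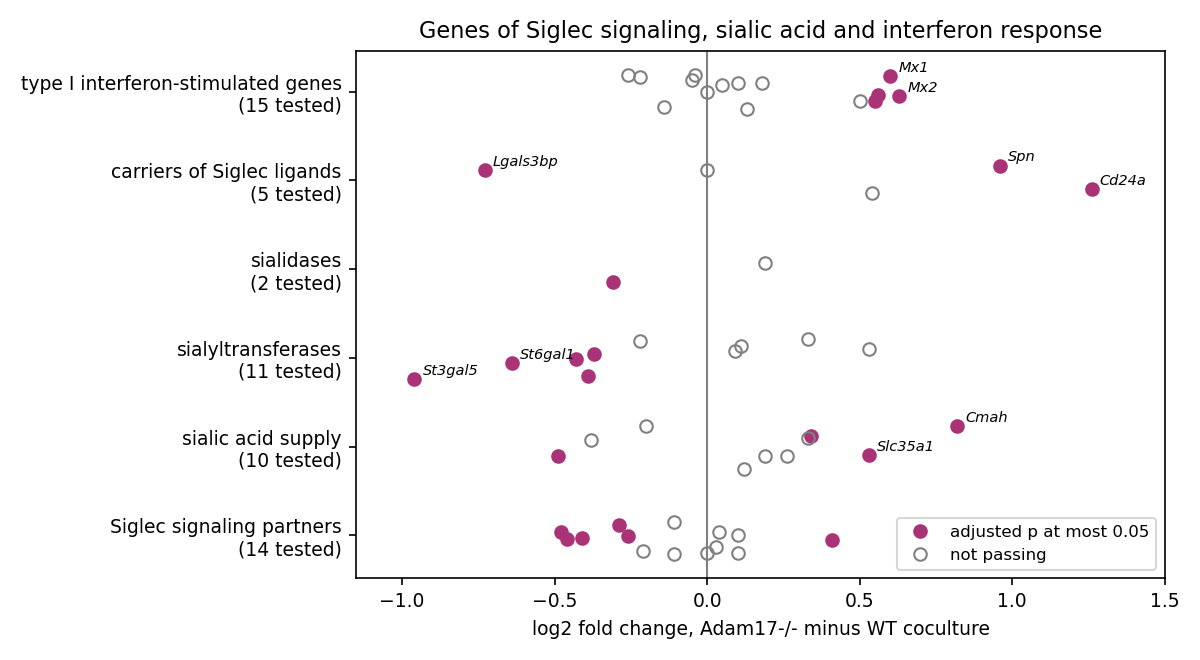
Log2 fold change (*Adam17*-/- minus WT coculture, x axis) of genes related to Siglec function, 1 point per gene tested, grouped by list on the y axis and spread vertically for legibility. Filled points passed an edgeR adjusted p of 0.05. *St8sia1*, whose WT counts were at or under the floor, is not drawn. *Cd24a* (1.26) and *St3gal5* (−0.96) stand at the ends, and the interferon-stimulated genes that passed lie between 0.55 and 0.63.

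The genes whose profile over the 5 libraries was most like that of each member were ranked among 11754 genes by the root mean square difference of centered log2 CPM. For *Siglec1* they included *Tmem171* (0.0736) and *AI661453* (0.0750). For *Siglecf* they were *Ifnlr1* (0.0902), *Nlrp12* (0.106), and *Crispld2* (0.130), each at a mean of under 10 CPM. *Siglece* was closest to *Fam131a* (0.0212), *1700020D05Rik* (0.0308), and *Id3* (0.0356), and *Cd33* to *Usp37* (0.00990), *Cenpj* (0.0132), and *Parp8* (0.0187). For *Cd22* they were *Rps6ka2* (0.0474), *Gm19897* (0.0547), and *Cdca2* (0.0695). With 5 libraries in 2 groups, many genes of similar fold change will have similar profiles.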

How the data were processed

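RNA-Seq of 2 WT and 3 *Adam17*-/- 4T1 cocultured BMDM samples was grouped by the sample labels, which do not say whether repeats were separate cultures or animals, so that p-values measure the spread between these samples, which may be technical. For each transcript, the authors deposited an unnormalized expected count. They also deposited its FPKM, which accounts for length and depth. The submitters' processing notes name Bowtie2, RSEM, HISAT, and DESeq2 and the build mm10, and versions are not given in the sources used here. The lists stop at an FPKM of 0.01, and unlisted transcripts entered as 0. Of gene sums, 13.2% to 14.0% were not whole (tolerance 0.02). Reads shared with other genes and unlisted transcripts can both give this, and the part of each was not tested. Symbols were matched for 17015 of 17058 gene IDs with RefSeq (GRCm38.p6).

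Rounded sums of expected counts per gene were fitted with edgeR 4.0.16 (R 4.3.3, TMM, filterByExpr, glmQLFit, glmQLFTest, no covariate). A Benjamini-Hochberg adjusted p of at most 0.05 counted as a call. Log2 CPM used a prior count of 2. Isoform shares were compared by exact permutation with SciPy 1.17.1. Alternatives were DESeq2 1.42.0 and its size factors, upper quartile factors, library size only, limma 3.58.1 on log2(FPKM + 1) or log2(FPKM + 0.1), the table without a filter, at least 10 counts in every sample, the replicate number as a block, and each library left out. On simulated data, edgeR called 200 of 200 genes changed by 2 on the log2 scale among 12576, with 0 false calls. A call there also needed a log2 fold change of at least 1, and all genes had the same dispersion in both groups. The simulation therefore does not cover smaller calls or the wider spread of the WT libraries. Members and lists were chosen with earlier results of these data known. Named genes were all members, *Adam17*, the 4 largest calls and the 2 genes of highest CPM in each list, the 3 closest profiles per member, and genes within 100 kb of a member, of which the called ones and *Mag* are given. A few genes named by the rule are not reported here. *Ptpn6*, *Lyn*, and the marker genes printed as examples were added after their values were seen. Cytoplasmic motifs in the proteins were not analysed here. Other tools were Python 3.11.15, pandas 2.3.3, Biopython 1.88, and matplotlib 3.10.9.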

Additional observations from a re-analysis of the deposited data

How the results depend on the processing

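*Siglec1* and *Siglecf* kept their direction and call in all 14 alternatives (largest adjusted p 0.00645 and 0.00435), with a log2 fold change of −1.17 to −0.93 and 1.40 to 1.95 when 1 library was left out. The call of *Siglece* was lost with DESeq2 (0.39, adjusted p = 0.0872), and leave-one-out values were 0.26 to 0.55. *Cd33* gave 0.23 to 0.32 and *Cd22* −0.0035 to 0.62 in the leave-one-out fits. Counts of higher members were then 1 to 4 (4 without WT replicate 1), and counts lower past a log2 fold change of 1 were 0 to 1. That count was 0 with library size only and with limma on log2(FPKM + 0.1) or log2(FPKM + 1). Over all genes, 1869 were higher and 2114 lower. They became 3019 and 1077 with library size only, 2927 and 1016 on log2(FPKM + 0.1), 2867 and 1011 on log2(FPKM + 1), and 1089 to 2460 and 926 to 2940 with 1 library left out. With 1 WT library, that sample was assumed to vary like the *Adam17*-/- group. Deviations from the group mean of samples with the same replicate number had correlations of −0.124 and −0.0504. Those of the 2 WT libraries mirror each other, so these values cannot decide whether the replicate number is a pairing. With it as a block, *Siglece* was 0.34 (adjusted p = 0.176) and *Cd33* 0.24 (adjusted p = 0.257), 1 member was higher, and 1216 and 1126 genes were higher and lower. Of 196 counts of the related gene lists, 45 moved by more than 1.5 times, and lower signaling partners numbered 2 to 7. The cause of these moves was not tested. With 1 library left out, isoform share differences were −3.36 to 3.89 (*Cd33*), −0.060 to 9.30 (*Cd22*), and 3.06 to 6.75 (*Siglecf*) percentage points. Depth limits *Siglecg* and *Siglech*, which had at most 12 counts.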

Other observations

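Within 100 kb of a member the annotation holds 55 genes that are not members, of which 23 were tested. Of these, 4 were higher and 5 were lower, beside 31.7% of all genes tested in either direction. The zinc finger gene *Zfp715* lies within 100 kb of *Siglecf* and, farther off, of *Siglecg*. It was 77.7 CPM in the WT group and 124 CPM in the *Adam17*-/- group (log2 fold change 0.67, edgeR adjusted p = 0.00131). Near *Siglec1*, 8 genes were tested and 3 passed, *Cenpb* (−0.57), *Atrn* (−0.37), and *1700037H04Rik* (−0.59), which were lower, as *Siglec1* was. The others, among them the gene closest to *Siglec1*, did not pass, and their log2 fold changes were not all negative. *Ctu1* near *Siglece* (−0.60) and *Cyfip1* near *Siglech* (−0.56) were lower too. *Zfp658* near *Cd33* (0.43) and *Ffar2* near *Cd22* (1.56) were higher. The remaining call, *Iglon5* near *Cd33* and *Siglecg*, had 2 and 0 counts beside WT cells and 6, 9, and 13 counts beside *Adam17*-/- cells. *Mag*, the myelin-associated Siglec, lies 18832 bp from *Cd22* and had a log2 fold change of −0.09 (edgeR adjusted p = 0.678). *Siglec15* had 2 counts in WT replicate 1 and was at 0 in the other 4 libraries.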
